A study of Mus musculus with 2 samples.

Results

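The clustered protocadherin genes were examined in accessible chromatin of regulatory T (Treg) cells. They were taken as all protein-coding genes of the mouse annotation (GENCODE on GRCm38, or mm10) whose symbol starts with Pcdha, Pcdhb or Pcdhg, which gave 57 of 21853 protein-coding genes. By family these were 12 alpha alternate genes, 22 beta genes, 12 gamma A genes, 6 gamma B genes and 5 C-type genes (Pcdhac1, Pcdhac2, Pcdhgc3, Pcdhgc4 and Pcdhgc5). The cells were inflammation-experienced Treg cells from an adult male mouse aged 6 months, of the strain Foxp3CreERT2 x Rosa26YFP, in which a drug-inducible Cre driven by the Treg factor Foxp3 is combined with a fluorescent reporter of Cre. Accessibility was read by ATAC-seq, which uses the transposase Tn5 to tag open DNA with adapters, in 2 technical replicates of 1 biological replicate. They formed 1 group, and the kind of inflammation and the way the cells were sorted are not stated in the labels. The deposited peak lists were taken to pool both libraries, so no spread between libraries or mice could be measured, no comparison between conditions was possible, and the sequencing depth is unknown.

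Clustered protocadherins are cell surface adhesion proteins of the cadherin superfamily, known best from neurons, where each cell shows its own mixture of them and uses it to tell its own processes from those of other cells. In the alpha and gamma arrays each variable exon has its own promoter and is spliced to constant exons shared by the whole array, whereas each beta gene is made from its own exon. Neurons choose among the alternate promoters in a stochastic way and express the C-type genes more uniformly. The choice is known to involve DNA methylation, the chromatin proteins SMCHD1 and SETDB1, and looping between promoters and distant enhancers by CTCF and cohesin.

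All 57 members lay on the plus strand of chromosome 18, from 36930184 at the start of Pcdha1 to 37841873 at the shared end of the gamma genes, a span of 911.69 kb. The alpha array took up 257.48 kb, the beta array 259.54 kb and the gamma array 180.08 kb, in this order. A region below is a set of overlapping or touching peaks of the IDR-thresholded list (IDR is the irreproducible discovery rate, a measure of how poorly a peak's rank repeats between 2 sets of reads). A promoter region is a region that overlaps the 1000 bp on either side of a protein-coding transcript start. Fold enrichment of a region is the authors' value for its highest peak, a linear ratio over a background that is not stated. The −log10 p of a region is the greatest of the authors' values among its peaks. Distances from a start are negative upstream of it.

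A promoter region was present at 7 of the 57 members (12.3%, 95% exact binomial interval 5.08 to 23.7%, which covers counting error only), against 49.7% of all protein-coding genes. All 7 belonged to the gamma array: Pcdhga5, Pcdhgb4, Pcdhgb5, Pcdhgb6, Pcdhgb7, Pcdhgc3 and Pcdhgc4. In the longer pseudoreplicated list, drawn from the same reads, 9 members had one (15.8%), against 55.3% of all protein-coding genes, the additional members being Pcdhga4 and Pcdhga11. In the ranked list, which holds every candidate with its IDR, the same 9 members had one, against 55.3% of all protein-coding genes. Among the 454 other protein-coding genes of chromosome 18 the share in the thresholded list was 56.6% (51.9 to 61.2%).

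The families differed in their counts. In the thresholded list a promoter region was found at 0 of 12 alpha alternate genes, 0 of 22 beta genes, 1 of 12 gamma A genes (8.33%, 0.211 to 38.5%), 4 of 6 gamma B genes (66.7%, 22.3 to 95.7%) and 2 of 5 C-type genes (40.0%, 5.27 to 85.3%). Of the C-type genes, those in the gamma array, Pcdhgc3 and Pcdhgc4, had a region, whereas Pcdhgc5 and both C-type genes of the alpha array, Pcdhac1 and Pcdhac2, had none in any list. The alpha and beta arrays together held 0 of 36 (upper bound 9.74%) and the gamma array 7 of 21 (33.3%, 14.6 to 57.0%). The 49.7% of all protein-coding genes lay inside the gamma B, C-type and gamma array intervals. It lay above the gamma A interval and above the bound for the alpha and beta arrays. The pseudoreplicated list raised the gamma A count to 3 of 12 and left the alpha, beta, gamma B and C-type counts as they were. In that list the share over all protein-coding genes was 55.3%. Genes in an array share sequence and neighbours and are not replicates, so the intervals describe counts, and no test between families was made.

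**Figure D1:**
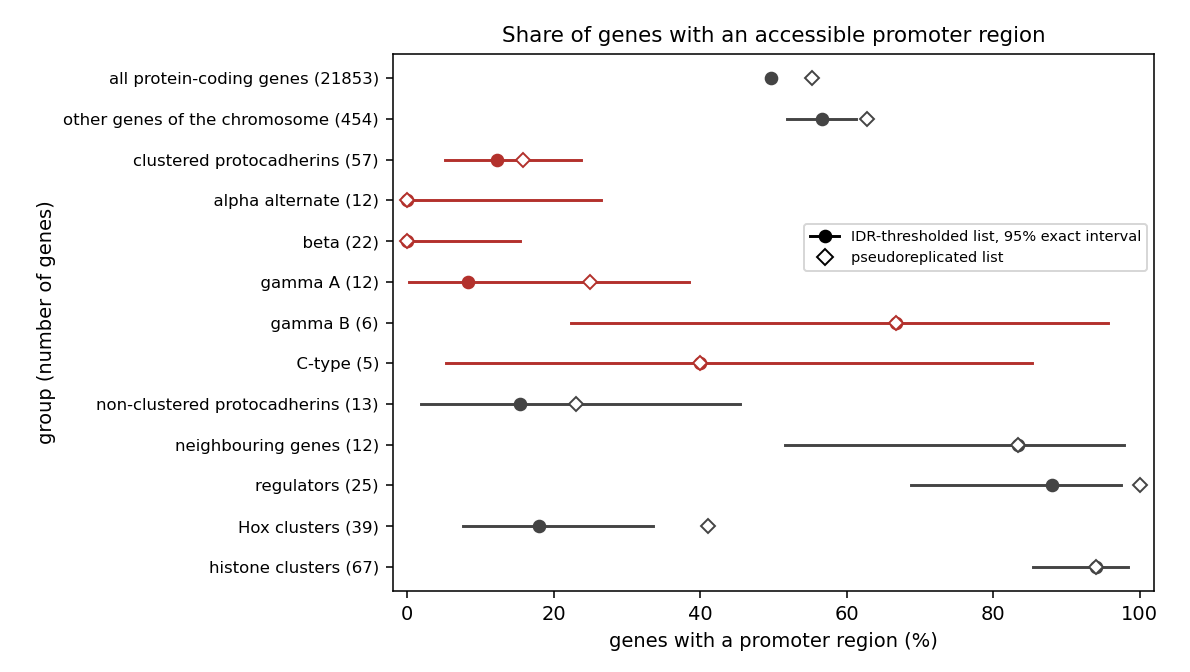
Share of genes with a promoter region in percent (x axis) for each group of genes, with the number of genes in parentheses. Filled circles with bars are the IDR-thresholded list with 95% exact binomial intervals, open diamonds the pseudoreplicated list, and red marks the clustered protocadherins and their families. The 12 neighbouring genes leave out 3 read-through models that start in the alpha array. The 57 members sit at 12.3%, with gamma B genes at 66.7% and alpha alternate and beta genes at 0 in both lists.

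The gamma array was where the members were accessible. It held 10 regions, or 5.55 per 100 kb, against 1.08 per 100 kb over the assembled chromosomes and 0.965 per 100 kb over chromosome 18. These densities were not adjusted for the number of gene starts, and the array holds 21 members in 180.08 kb. Per gene, 33.3% of its members had a promoter region, against 49.7% of all protein-coding genes. The alpha and beta arrays held 0 regions each in the thresholded, the pseudoreplicated and the ranked list. Over the whole span, the promoter of Taf7 included, 11 regions gave 1.21 per 100 kb, close to the value for the assembled chromosomes. Of the 57 members in the span, 12.3% had a promoter region.

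A single stretch without a region ran from 36802207 to 37643720 on chromosome 18, a length of 841.51 kb, and contained the 5′ ends of all 36 alpha and beta members. By length it was number 570 of 29394 stretches between neighbouring regions, which had a median of 17.5 kb, and 20 stretches on chromosome 18 were longer. By the number of protein-coding 5′ ends inside, 40, it was number 19. Beside the members these were Slc25a2, a gene for a mitochondrial carrier, and Gm42416, Gm37013 and Gm37388, models that start in the alpha array and end in the gamma array. In the pseudoreplicated and ranked lists the stretch was 840.59 kb long. The nearest candidate of the ranked list, whose weakest candidates had a fold of 1.31 and a −log10 p of 2.00, lay 127 kb from the start of Pcdha1, 217 kb from that of Pcdha12, 287 kb from that of Pcdhac1, 340.5 kb from that of Pcdhac2, 379 kb from that of Pcdhb1 and 126 kb from that of Pcdhb22.

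**Figure D2:**
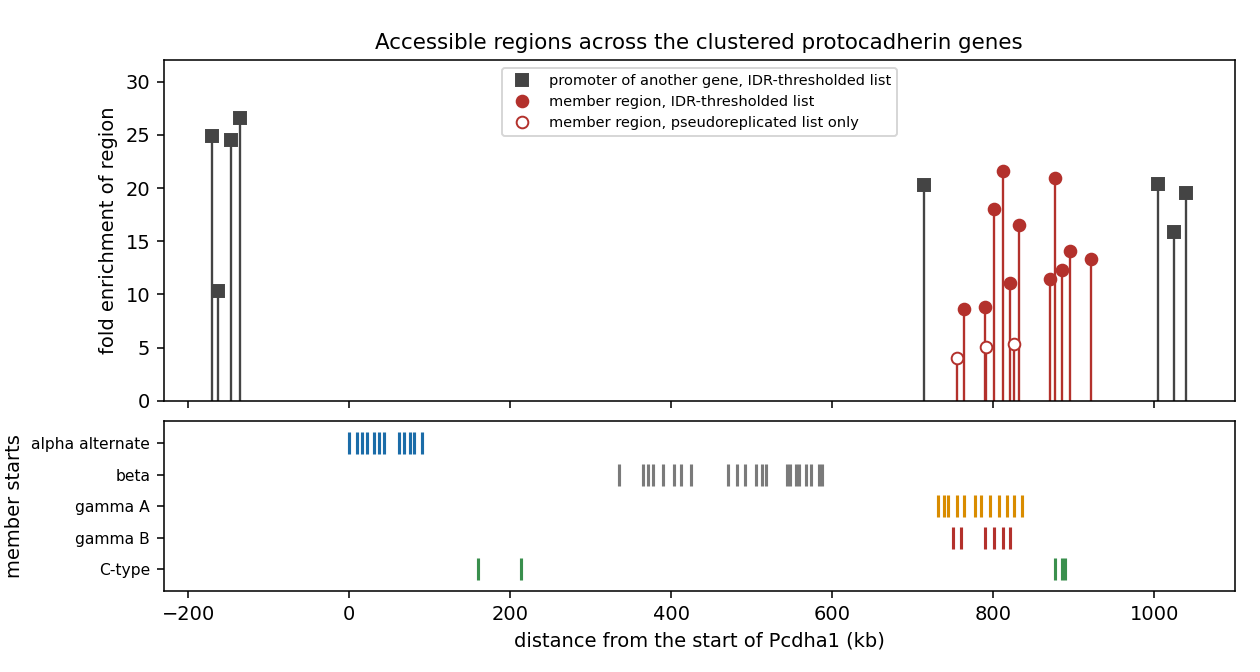
Upper panel: fold enrichment (y axis) of regions against the distance of their summit from the start of Pcdha1 in kb (x axis); red filled circles are member regions of the IDR-thresholded list, red open circles those of the pseudoreplicated list only, and dark squares the promoter regions of neighbouring genes, placed at their middle. Lower panel: starts of the 57 members by family. No mark stands over the alpha and beta starts, and all 14 red circles stand over or just past the gamma array.

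Reads from near-identical genes can be lost when they map to several places, and how such reads were treated is not given in the sources used here. The share of 32-base words that occur only once on the assembled chromosomes was therefore taken from the reference. Within 1000 bp of the first start it was 72.6 to 92.8% (median 88.8%) for alpha alternate genes, 79.0 to 100% (median 99.6%) for beta genes, 88.8 to 99.95% for gamma A genes and 81.6 to 100% for gamma B genes. The 7 members with a promoter region had a median of 90.2% and the 50 without one a median of 95.5%, and 0 of 57 fell under 50%. Over whole arrays the share was 77.5% for alpha, 79.65% for beta and 93.4% for gamma. The part of repeated sequence in the absence of regions was not tested beyond these values.

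Among the gamma B genes, which encode one of the alternate groups of gamma protocadherins, accessibility was found at successive gamma B promoters, with gamma A genes without a thresholded region between them. Pcdhgb6 had the highest fold of all members, 21.6 (chr18:37741857-37742532, −log10 p 159), above 83.5% of the 11184 promoter regions of all protein-coding genes. Its −log10 p was 81.6 and 83.3 in the 2 sets of reads ranked against each other, and its IDR was 0.00086. Pcdhgb5 had a fold of 18.1 (chr18:37730797-37731487, −log10 p 79.2) with −log10 p of 41.4 and 37.4 in the sets. Pcdhgb7 had a fold of 11.1 (chr18:37751444-37751943, −log10 p 49.7) with 26.4 and 25.4. Pcdhgb4 was the lowest, with a fold of 8.85 (chr18:37720222-37720467, −log10 p 24.8) and 14.5 and 12.3 in the sets. The sets gave the same order of these 4 genes, with Pcdhgb6 first and Pcdhgb4 last, but the sources used here do not say how the sets of reads were formed. Pcdhgb1 and Pcdhgb2, the gamma B genes nearest to the start of the array, had no candidate within 4.95 and 4.51 kb.

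The gamma A genes are interspersed with the gamma B genes along the chromosome, and 1 of 12 had a promoter region in the thresholded list. This was Pcdhga5, with a fold of 8.59 (chr18:37694224-37694780, −log10 p 23.7, IDR 0.0354), above 15.6% of all promoter regions. Pcdhga11 (chr18:37755603-37755806) had a fold of 5.39 and Pcdhga4 (chr18:37685091-37685315) a fold of 4.04 in the pseudoreplicated list, both with an IDR of 0.357. Their −log10 p in the 2 sets was 9.11 and 7.46 for Pcdhga11 and 3.81 and 6.32 for Pcdhga4. Inside the thresholded list, whose limit is an IDR of 0.05, the members nearest the limit were Pcdhgb4 (0.036) and Pcdhga5 (0.0354). Pcdhga4 and Pcdhga11 lay well outside it. The summit at Pcdhga11 was in an exon of Gm26672, so its region cannot be given to Pcdhga11 alone. Pcdhga8, Pcdhga9 and Pcdhga10, which lie between the accessible gamma B genes, had no candidate closer than 5.10, 5.09 and 4.59 kb. Pcdhga1, at the start of the array, had none within 17.6 kb. In cells measured in bulk, a promoter open in few cells and one weakly open in many cannot be told apart.

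The C-type genes of the gamma array stood further along. Pcdhgc3 had the highest −log10 p of all members, 262, and the widest promoter region, 1231 bp (chr18:37805877-37807107), with a fold of 20.9 and −log10 p of 129 and 147 in the sets. The summit lay in an exon of BC037039, a noncoding gene on the opposite strand, so the region cannot be given to Pcdhgc3 alone. Pcdhgc4 had a region of 1004 bp with a fold of 12.3 (chr18:37814530-37815533, −log10 p 98.3) and −log10 p of 41.7 and 58.0 in the sets. Pcdhgc5, the last gene of the array, had no promoter region, and the nearest candidate lay 4.16 kb from its start.

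**Figure D3:**
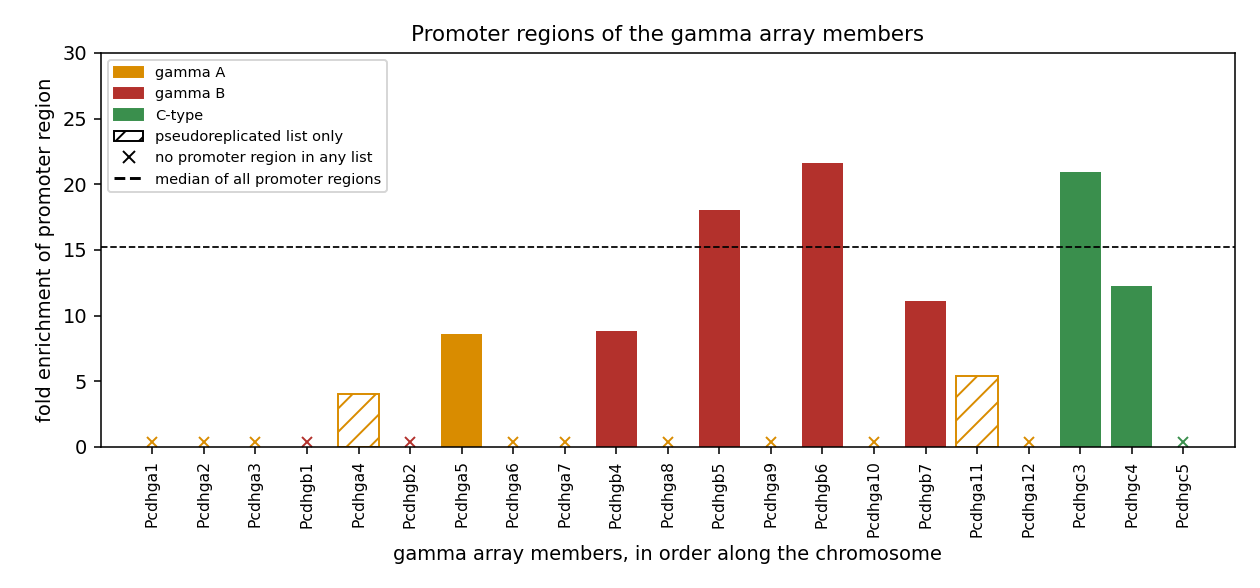
Fold enrichment (y axis) of the promoter region of each of the 21 gamma array members in chromosome order (x axis), with bars coloured by family. Hatched bars are regions of the pseudoreplicated list only, crosses mark members without a promoter region in any list, and the dashed line is the median of all promoter regions, 15.2. Pcdhgb5, Pcdhgb6 and Pcdhgc3 stand above the line, and Pcdhgb1, Pcdhgb2 and most gamma A genes have a cross.

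The promoter regions of the members spread widely in height and width. Their median fold was 12.3, against 15.2 for all promoter regions (interquartile range 10.7 to 19.7), and 3 of 7 lay above that median. Pcdhga5 and Pcdhgb4 lay below the lower quartile, and Pcdhgb6 and Pcdhgc3 above the upper. Their median width was 676 bp, against 900 bp for all promoter regions, and Pcdhgc3 and Pcdhgc4 were wider than that. Values of single regions carry no replicate error, so these differences are descriptions.

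The highest summit of each promoter region lay just upstream of the annotated transcript start nearest to it. It was 47 bp upstream at Pcdhga5, 35 bp at Pcdhgb4, 57 bp at Pcdhgb5, 65 bp at Pcdhgb6, 13 bp at Pcdhgb7 and 72 bp at Pcdhgc3. At Pcdhgc4 it lay 49 bp upstream of the second of 2 annotated starts, at 37815401. It was thus downstream of the first start, at 37815079, and in an exon of Pcdhgc4. In the pseudoreplicated list Pcdhga4 and Pcdhga11 had theirs 27 and 20 bp upstream. Most of these summits fell within introns of preceding gamma genes, whose transcripts run through the array. At Pcdhga5, Pcdhgb5, Pcdhgb6 and Pcdhgb7 there was another, lower summit downstream, 180, 170, 164 and 187 bp past the start, inside the variable exon. The distance between both summits was 227, 227, 229 and 200 bp. In the 3423 promoter regions of all genes with 2 summits it had a median of 306 bp (interquartile range 260 to 403 bp), so that each of these 4 members lay below the lower quartile. At Pcdhgb5 the downstream summit had a fold of 8.68 against 18.1 upstream, and at Pcdhgb6 10.4 against 21.6. Pcdhgb4 had 1 summit in the thresholded list and a separate region 235 bp past its start (fold 5.05, IDR 0.357) in the pseudoreplicated list.

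**Figure D4:**
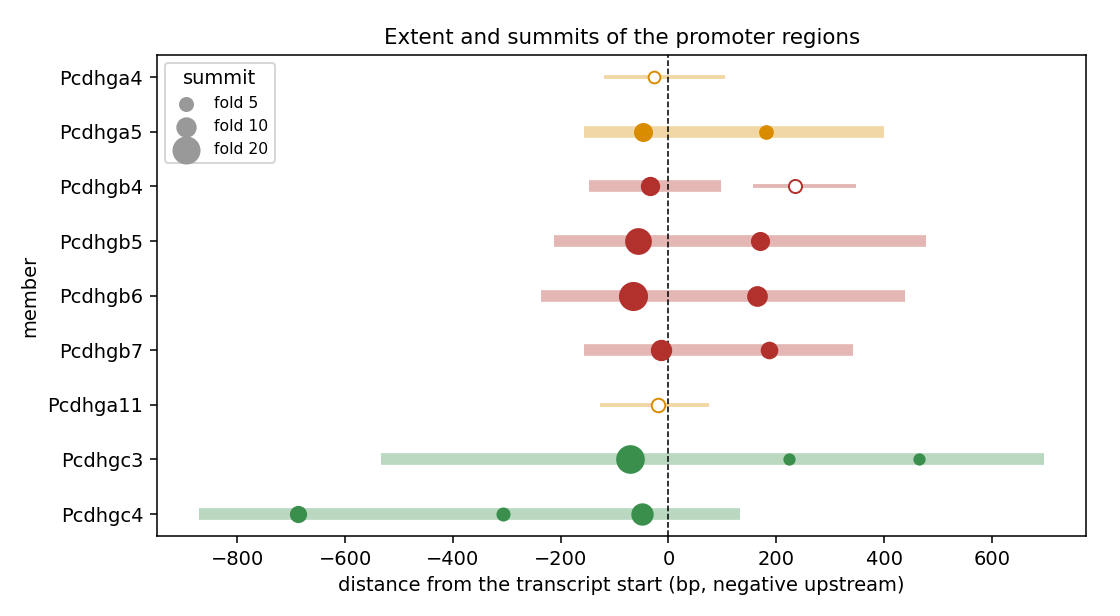
Extent (bars) and summits (circles, area in proportion to fold) of the promoter regions of 9 members, against the distance from the transcript start in bp (x axis, dashed line at 0). Thick bars and filled circles are regions of the IDR-thresholded list, thin bars and open circles those of the pseudoreplicated list only. The highest summit of every region in the thresholded list lies between 13 and 72 bp upstream of its nearest start, and 4 members have another 164 to 187 bp downstream.

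Beside the promoter regions, 4 other regions had a member as the nearest protein-coding start within 100 kb, which made 11 member regions with a median fold of 13.3, against 13.1 for all 29415 regions. A region at chr18:37761523-37761960 had a fold of 16.5 and a −log10 p of 79.4. It lay 3918 bp before Pcdhga12, but covers the start of Pcdhgb8, a further gamma B gene that the annotation types as a polymorphic pseudogene and that is therefore not a member. Its highest summit was 139 bp upstream of the Pcdhgb8 start, and its summits were 238 bp apart. Counted among gamma B starts alone, 5 in a row from Pcdhgb4 to Pcdhgb8 thus carried a region, with gamma A starts lying between them.

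A region at chr18:37800676-37801091 had a fold of 11.5 and lay 5452 bp before Pcdhgc3, in an intron of 18 members. Its IDR of 0.0446 was the highest among the member regions of the thresholded list. Another region, at chr18:37824907-37825564, had a fold of 14.05 and its summit in an exon that is annotated in all 21 gamma members, the constant part of the gamma transcripts. It lay 5481 bp past the nearest start, that of Pcdhgc5. The last, at chr18:37852025-37852754, had a fold of 13.3 and lay 32714 bp past the Pcdhgc5 start, beyond the end of the gamma array, in an intron of Diaph1, a formin gene on the opposite strand.

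CpG content varied between and within the families. The ratio of observed to expected CpG within 500 bp of the start, taken as the highest over a gene's coding starts, was 0.569 to 0.752 (median 0.721) for alpha alternate genes, 0.158 to 0.519 (median 0.396) for beta genes, 0.318 to 0.864 (median 0.588) for gamma A genes and 0.550 to 0.686 (median 0.650) for gamma B genes. It was 0.564 at Pcdhac1, 0.681 at Pcdhac2, 0.798 at Pcdhgc3, 0.670 at Pcdhgc4 and 0.244 at Pcdhgc5. The median over all protein-coding genes was 0.614. GC content was low in the members, with a median of 44.9% against 55.9% over all genes.

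The members with a promoter region had ratios from 0.642 at Pcdhgb7 to 0.798 at Pcdhgc3. All genes were divided by this ratio into 10 classes of equal size, numbered from the lowest. Of the 10 members in class 6 (0.614 to 0.699), 6 had a promoter region, against 68.8% of all genes there. This share mixed 2 arrays. The 6 were Pcdhga5, Pcdhgb4, Pcdhgb5, Pcdhgb6, Pcdhgb7 and Pcdhgc4, every gamma array member of the class. Its alpha array members, Pcdha4, Pcdha9, Pcdha10 and Pcdhac2, had none. In class 7 (0.699 to 0.767), 0 of 10 members had one, whereas 76.5% of all genes did. Those 10 were 8 alpha alternate genes with Pcdhga8 and Pcdhga10. In class 5 (0.481 to 0.614) 0 of 13 members had one, against 54.5% of all genes. Classes 3 and 4 held 9 and 12 members and 0 promoter regions, against 12.4 and 25.35% of all genes. Pcdhga11, with the highest ratio of all members, 0.864, had a region in the pseudoreplicated list only.

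**Figure D5:**
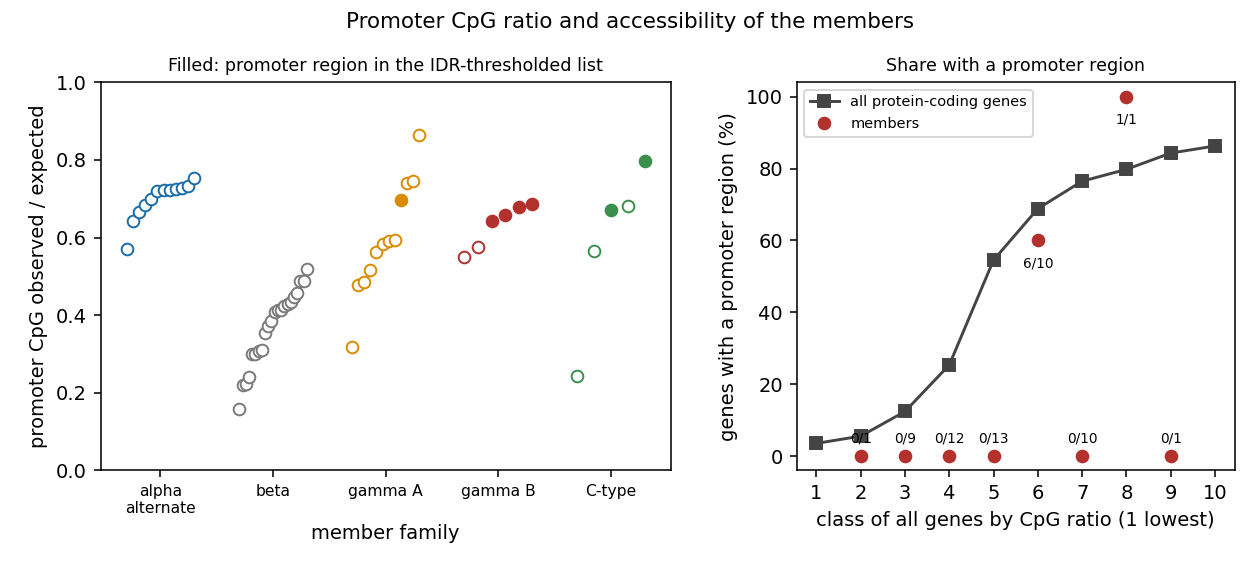
Left: CpG observed over expected within 500 bp of the start (y axis) for each member, by family (x axis), sorted within a family; filled circles have a promoter region in the IDR-thresholded list. Right: percent of genes with a promoter region in each of the 10 classes of protein-coding genes by this ratio, for all genes (squares) and for the members (circles, with counts). Alpha alternate genes, at 0.569 to 0.752, overlap the accessible gamma B genes in ratio and are all unfilled.

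Motifs were searched on both strands within 50 bp of the highest summit. The CTCF consensus, 14 letters long with up to 1 mismatch, matched in 1 of 11 member regions (9.09%, 0.230 to 41.3%), the one in the Diaph1 intron, against 10.25% of all regions. None of the 7 member promoter regions held a match, and 2.92% of all promoter regions did. Anywhere in the region, the region 5452 bp before Pcdhgc3 also held one. Within 500 bp of transcript starts, 2 of 57 members had a match (3.51%, 0.428 to 12.1%), an interval that holds the 7.496% of all protein-coding genes. They were Pcdha1, 466 bp past its other annotated start (36930285), and Pcdha5, 463 bp past its start. Both matches were on the strand of the gene, and neither gene had a promoter region. Sites that differ from the consensus by more than 1 letter are missed by this search. CTCF binding was not measured, so the absence of a match does not mean that a CTCF site is absent. SP/KLF (GGGCGG) matched in 1 of 11 member regions, the one in the gamma constant exon, against 20.3% of all regions, and in 0 of the 7 promoter regions, against 41.75% of all promoter regions. AP-1 (TGANTCA), RUNX (TGTGGTT) and ETS (CCGGAAG) each matched in 0 of 11, against 6.35, 6.35 and 6.51% of all regions. With 11 regions, a share of up to 28.5% is within the exact interval of a count of 0, so for these motifs no difference between member regions and all regions was detectable. For SP/KLF in promoter regions, the interval of 0 of 7 reaches 40.96%, just under the 41.75% of all promoter regions. In the pseudoreplicated list 0 of 10 member promoter regions held the SP/KLF letters, with an upper bound of 30.85%, against 37.7% of all promoter regions. These 10 include the same 7 regions, and 2 of them belong to Pcdhgb4, so they are no separate support. The SP/KLF letters are all G or C, and GC content around the starts was low in the members (median 44.9% against 55.9% over all genes). The part of GC content in the absence of these letters was not tested. Members of an array are not independent, and these bounds cover counting error only.

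Of the 15 neighbouring protein-coding genes, 10 had a promoter region (66.7%, 38.4 to 88.2%). This interval holds both the 49.7% of all protein-coding genes and the 56.6% of other genes of chromosome 18. Without the models Gm42416, Gm37013 and Gm37388, which start in the alpha array, it was 10 of 12 (83.3%, 51.6 to 97.9%). That interval lies above the 49.7% and holds the 56.6%. Before the alpha array, Wdr55 (fold 24.9), Dnd1 (10.3), Hars and Hars2, which share a region (24.5), and Zmat2 (26.6) had one. Taf7, a gene for a subunit of the general transcription factor TFIID that lies between the beta and gamma arrays, had a fold of 20.2. Diaph1 (20.3), Hdac3 and Rell2, which share a region (15.9), and Fchsd1 (19.5) followed the gamma array. Slc25a2, the read-through models Gm42416, Gm37013 and Gm37388, and Arap3 had none. The stretch without a region thus ended at the Taf7 promoter, and 7 of the 8 distinct regions of these neighbours had a higher fold than the median of all promoter regions.

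Protocadherins outside the clusters were also mostly without a promoter region. Of 13 listed genes, Pcdh1 (fold 16.8) and Pcdh17 (fold 10.3) had a promoter region (15.4%, 1.92 to 45.45%), and Pcdh19 had one of fold 4.26 in the pseudoreplicated list. Pcdh7, Pcdh8, Pcdh9, Pcdh10, Pcdh11x, Pcdh12, Pcdh15, Pcdh18, Pcdh20 and Cdhr1 had none. Pcdh7 had a CpG ratio of 0.911, in class 10, where 86.3% of all genes had a promoter region. Among other gene clusters, 7 of 39 Hox genes, which set position along the body axis, had a promoter region (17.9%) and 16 did in the pseudoreplicated list. Of 67 replication-dependent histone genes, 63 had one in both lists.

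Of 25 genes listed as possible regulators of the clusters, 22 had a promoter region in the thresholded list (88.0%, 68.8 to 97.45%). The share of all protein-coding genes was 49.7%. In the pseudoreplicated list 25 had one. With gene 5′ ends alone, the count in the thresholded list was 17. The folds given below for Dnmt1, Trim28 and Tet1 come from regions over 1000 bp past the 5′ end of the gene record. The 25 listed genes are rich in CpG. In the CpG classes 8 to 10, which held 22 of them, 20 had a promoter region (90.9%), near the 83.45% of all genes in those classes. For looping, all 8 had one, among them Ctcf (fold 8.59), the cohesin genes Rad21 (18.5), Smc1a (18.9) and Smc3 (18.6), and the cohesin release factor Wapl (19.8). For repression 7 of 8 had one, with Smchd1 at 10.6, the H3K9 methyltransferase gene Setdb1 at 17.5 and its partner Trim28 at 12.8. Ehmt2 had a fold of 5.42 in the pseudoreplicated list only. For DNA methylation 6 of 8 had one, including the maintenance methyltransferase gene Dnmt1 (18.6) and its partner Uhrf1 (25.2), while Dnmt3b (8.72) and Tet1 (4.33) had theirs in the pseudoreplicated list only. Rest, the repressor of neuronal genes, had a fold of 5.59. Neither expression of these genes nor binding of their products at the protocadherin arrays was measured.

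The label of the cells was set against marker genes. Of 13 T and Treg cell markers 12 had a promoter region, Cd3e (fold 14.2), Foxp3 (9.62) and Ctla4 (6.20) among them, and Tnfrsf18 had none. Of 10 neuronal markers 2 had one, Map2 and Syn1, of 5 B cell markers 1 (Pax5), and of 5 myeloid markers 0. Of 4 markers of stroma and endothelium 3 had one, Col1a1 (fold 13.2), Pecam1 (12.9) and Pdgfra (9.13). A promoter region can lie at any annotated start. The highest such regions of Pdgfra, Pax5, Cd3d, Cd28, Ctla4 and Lck lay over 1000 bp past the 5′ end of the gene record. The Col1a1 region lay within 1000 bp of the 5′ end but wholly past it. The share over all protein-coding genes was 49.7%. The part of other cell types in the gamma array regions was not tested.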

How the data were processed

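The members and gene lists were chosen with earlier results of these data known. Per the labels, 2 technical replicates of 1 biological replicate were measured; aligner, peak caller, read filters and depth are not stated there. The deposited lists (pseudoreplicated, IDR-thresholded and IDR-ranked, on mm10) give each peak a score, a fold enrichment, a −log10 p and a −log10 q, as read from column order and values, and the authors' lists held no value labelled by library. The deposited score went down to 540 in the thresholded list, equivalent to an IDR of 0.05.

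Peaks on the 21 assembled chromosomes that overlapped or touched were merged; the highest peak gave a region its fold and summit. A region was assigned to a gene by overlap with 1000 bp around any protein-coding start (GENCODE M21), otherwise by the nearest start within 100 kb of its summit. Sequence came from GRCm38.p6. The annotation names 2 genes Pcdha11; the one starting at 37005203 is called Pcdha10 here, after RefSeq. No sequence of chromosome 18 is reported here. Every member with a promoter region is named, with the C-type genes, Pcdhb1 and the ends of each array. No p-value was computed. The counting of promoters and the assignment to the nearest start were tested on simulated data. Python 3.11.15, numpy 2.4.6, pandas 2.3.3 and scipy 1.17.1 were used.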

Additional observations from a re-analysis of the deposited data

How the results depend on the processing

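Of 57 alternative values computed, 39 were counts of genes or regions, and 34 of these stayed within 1.5 times the reported count. The 7 members with a promoter region were 7 with windows of 500 or 2000 bp, with gene 5′ ends alone, with summits required in the window and with a −log10 q of at least 10, and alpha and beta members numbered 0 in each of these and in all 3 lists. In the pseudoreplicated list the median fold of member regions was 11.9, the density 1.54 regions per 100 kb and the longest stretch 840.59 kb; in the ranked list these were 11.5, 1.65 and 840.59 kb. With only the upper 50% of regions by fold, 3 members (Pcdhgb5, Pcdhgb6 and Pcdhgc3), 6 member regions (median fold 17.3, density 0.658), 1 non-clustered protocadherin and 14 regulators were left, as fewer regions are kept. With gene 5′ ends alone, 17 regulators had a promoter region. Counting every summit singly gave 22 member regions with a median fold of 8.76 and a density of 2.52. The median CpG ratio of members was 0.564 and became 0.553 within 250 bp. No paired analysis was possible because the lists pool both libraries, and for the same reason no replicate could be left out. Depth is unknown, so an absent region means only that none was called.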

Other observations

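The stretches without a region that held more protein-coding 5′ ends than the 40 of the alpha and beta protocadherin stretch were mostly other tandem gene families. On chromosome 2, 3012.7 kb with 133 5′ ends were led by olfactory receptor genes, and on chromosome 7, 4135.1 kb with 106 5′ ends were led by vomeronasal receptor genes. On chromosome 11, 1063.7 kb with 67 5′ ends were led by keratin genes. On chromosome 8, 1490.0 kb with 44 5′ ends included beta-defensin genes. These stretches were longer than the 841.51 kb of the protocadherin stretch, and they are named here after their values were seen.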
